A study of Mus musculus with 9 samples.

Results

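Adipogenic transcription factors are the DNA-binding proteins that carry a stromal precursor towards a fat cell. The genes of 8 of them, Cebpb, Cebpd, Cebpa, Pparg, Rxra, Klf15, Zfp423 and Ebf1, were taken by symbol from a gene count table of 23358 entries. All 8 passed the filter on low counts, which left 13240 genes for testing. RNA had been sequenced from mesenchymal stem cells (MSCs), multipotent stromal cells, of adult C57BL/6 mouse marrow at passages 4 to 10. The siBcat cultures received an siRNA that targets beta-catenin (gene Ctnnb1), a protein of cell junctions and the nuclear effector of Wnt signalling. The GSK126 cultures received a non-targeting siRNA together with 5 µM GSK126, a small-molecule inhibitor of the histone methyltransferase Ezh2. The siCTL cultures received the non-targeting siRNA alone. Each group had 3 biological replicates, per the series text, but the labels do not say whether these came from separate animals, so p-values measure the spread between these libraries. All cultures were kept in osteogenic medium (ascorbic acid and beta-glycerophosphate) and lysed 4 days after transfection. The labels disagree on siBcat: its titles say no inhibitor, while its treatment field adds 5 µM GSK126 to the siRNA. The titles were followed, and each siBcat result below rests on that reading.

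In the adipocyte programme known from mouse cell lines, C/EBPβ and C/EBPδ are induced first and switch on Pparg and Cebpa. PPARγ, as a heterodimer with RXRα, and C/EBPα then activate each other and the genes of lipid uptake, storage and adipokine secretion. Zfp423 and Ebf1 act earlier, in the commitment of precursors, and Klf15 joins in late differentiation. In marrow, the same stromal precursors can give osteoblasts or adipocytes. Wnt signalling through beta-catenin is known to restrain the adipocyte choice, and Ezh2 deposits the repressive histone mark H3K27me3.

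Summed counts were 42324200 to 55898774 per library, all of them even numbers, as would arise if both mates of a pair were counted. Levels below are CPM, the count scaled to a common library total after TMM scaling. Ctnnb1 was at 19.3, 19.3 and 19.1 CPM in the libraries labelled siBcat, against 854, 860 and 879 CPM in siCTL, a log2 fold change of -5.49. In the GSK126 libraries it was at 925, 950 and 906 CPM. Of 12 markers of mesenchymal stromal cells, 11 were tested, and Thy1, one of the markers by which such cells are defined, was at 0 in all 9 libraries. The Ezh2 transcript, which an enzyme inhibitor need not alter, averaged 27.5 CPM in siBcat, 27.9 CPM in GSK126 and 23.7 CPM in siCTL. Of 8 macrophage and haematopoietic markers, Ptprc, Adgre1 (listed as Emr1) and Tyrobp were also at 0 in all libraries. The 8 together summed to between 2.67 and 3.64 CPM, and 4 of them (Cd68, Csf1r, Lyz2 and Cd74) were tested. GSK126 replicate 3 stood apart by a trend on gene length, which took up 21.4% of the variance of its deviations from the group mean. The other GSK126 replicates had 7.06% and 9.28%, and no siBcat or siCTL library exceeded 0.816%. Deviations within a group cancel out, so a trend in replicate 3 also enters those of the other GSK126 replicates. A trend on GC content was largest in siCTL replicate 3, at 10.7%. The settings below that remove a trend fitted it to each library's deviations from the mean of all 9 libraries. Such a removal can also take out a trend that differs between the treatments.

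Promoter sequences, from RefSeq on GRCm38.p6 (250 bases before to 50 after a start), were at hand for 7 of the 8 genes, Cebpd being the other one. Those of Cebpa, Klf15 and Cebpb are shown because their genes differed in opposite directions in siBcat, and those at 2 of the 3 Pparg starts because the gene counts cannot say which start was used. All lie on the + strand: Cebpa at chr7:35119043-35119342, Klf15 at chr6:90462326-90462625, Cebpb at chr2:167688665-167688964, and Pparg at chr6:115360894-115361193 (start 1) and chr6:115421816-115422115 (start 3). Capitals mark, on either strand, TATAAA (the TATA box), CCAAT (the CCAAT box), TGACG (the core of a cAMP response element), TTGCG (the core of a C/EBP site), CACGTG (an E-box) and TCAAAG (a Tcf/Lef core).
Cebpa: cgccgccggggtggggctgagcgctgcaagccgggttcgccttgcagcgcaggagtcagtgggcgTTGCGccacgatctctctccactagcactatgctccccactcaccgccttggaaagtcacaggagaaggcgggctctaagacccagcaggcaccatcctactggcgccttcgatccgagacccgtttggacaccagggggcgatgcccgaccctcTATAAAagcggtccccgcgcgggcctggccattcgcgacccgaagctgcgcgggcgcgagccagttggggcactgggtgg
Klf15: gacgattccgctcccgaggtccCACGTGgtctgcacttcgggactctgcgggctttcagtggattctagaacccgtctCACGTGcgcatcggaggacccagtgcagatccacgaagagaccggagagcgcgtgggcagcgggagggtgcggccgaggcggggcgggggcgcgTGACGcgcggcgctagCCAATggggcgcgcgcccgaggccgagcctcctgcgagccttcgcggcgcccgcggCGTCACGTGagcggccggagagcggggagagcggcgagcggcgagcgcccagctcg
Cebpb: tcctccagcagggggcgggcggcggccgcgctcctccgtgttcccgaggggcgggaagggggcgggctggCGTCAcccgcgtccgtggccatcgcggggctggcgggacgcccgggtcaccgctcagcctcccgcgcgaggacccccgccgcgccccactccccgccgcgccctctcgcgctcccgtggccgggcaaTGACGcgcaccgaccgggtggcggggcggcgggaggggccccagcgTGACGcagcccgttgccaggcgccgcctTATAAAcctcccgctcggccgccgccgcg
Pparg start 1: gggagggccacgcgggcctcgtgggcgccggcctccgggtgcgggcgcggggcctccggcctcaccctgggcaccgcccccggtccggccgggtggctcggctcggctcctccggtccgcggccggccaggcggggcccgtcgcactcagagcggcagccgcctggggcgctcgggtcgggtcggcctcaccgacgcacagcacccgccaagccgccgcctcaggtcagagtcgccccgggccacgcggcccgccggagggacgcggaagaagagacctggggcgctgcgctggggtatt
Pparg start 3: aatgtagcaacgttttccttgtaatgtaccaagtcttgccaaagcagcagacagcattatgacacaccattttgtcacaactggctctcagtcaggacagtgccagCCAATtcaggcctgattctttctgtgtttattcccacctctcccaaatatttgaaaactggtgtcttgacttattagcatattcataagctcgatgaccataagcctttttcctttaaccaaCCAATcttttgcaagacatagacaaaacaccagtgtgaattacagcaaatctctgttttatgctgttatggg
The Cebpa window held a TATA box whose first base lay at position -30 from the start and one TTGCG at -185. The Klf15 window held CACGTG at -228, -172 and -3, TGACG at -78 and, overlapping the last E-box, on the other strand at -6, and CCAAT at -62. The Cebpb window held TGACG at -180 (other strand), -53 and -7, and TATAAA past the start at position 22. Start 3 of Pparg had CCAAT at -144 and -22, and start 1 had none of the capitalised motifs. Start 2, not shown, had TATAAA at -29 and CCAAT at -83, both on the other strand. For scale, TATAAA occurred in 13.6%, CCAAT in 37.4%, TGACG in 20.8%, TTGCG in 17.4%, CACGTG in 7.15% and TCAAAG in 16.0% of 32851 promoters of the same length, so a match is a description and not a bound site. GC content was 67.3% in the Cebpa window, 73.3% in Klf15, 80.7% in Cebpb, 80.3% at Pparg start 1 and 40.3% at start 3, beside a median of 52.7% over all promoters.

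Each treatment was compared with siCTL, and the treatments with each other, to ask how the adipogenic regulators stood after beta-catenin depletion and after Ezh2 inhibition. The set split in siBcat: Cebpd, Cebpb and Pparg were higher than in siCTL, while Klf15, Cebpa, Zfp423 and Rxra were lower. In GSK126, Cebpd, Pparg and Cebpa were higher and none was lower at the threshold. A gene was called at an adjusted p under 0.05 in edgeR's quasi-likelihood test with Benjamini-Hochberg adjustment over all genes tested. In siBcat against siCTL, 7 of the 8 factors were called (3 higher, 4 lower), beside 35.2% of all genes tested (17.7% higher, 17.5% lower). The same 7 were fully separated, with every siBcat library on one side of every siCTL library, as were 55.2% of all genes. In GSK126 against siCTL, 3 factors were called, all higher, beside 25.0% of all genes (14.3% higher, 10.7% lower). Libraries did not overlap for 4 factors and for 42.1% of all genes, so neither share stood far from the background. In siBcat against GSK126, 4 factors were called, all lower in siBcat (Cebpa, Klf15, Rxra and Pparg), beside 41.2% of all genes (19.3% higher, 21.9% lower). Libraries did not overlap for 5 factors and for 52.5% of all genes. At a fold of at least 1.5 as well, 4 factors were called in siBcat over siCTL (10.3% of all genes), 1 in GSK126 over siCTL (6.96%) and 2 in siBcat over GSK126 (13.2%). Scaling by library size alone moved the share of higher calls in that comparison to 33.4%, against 46.8% with TMM. The 2 comparisons with siCTL share their control libraries. The median log2 fold change of the 8 factors was -0.12 in siBcat over siCTL, 0.29 in GSK126 over siCTL and -0.13 in siBcat over GSK126, beside medians over all genes of 0.0024, 0.0063 and -0.012. Since these are bulk cultures, fewer cells expressing a factor and less RNA per cell cannot be told apart.

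**Figure D1:**
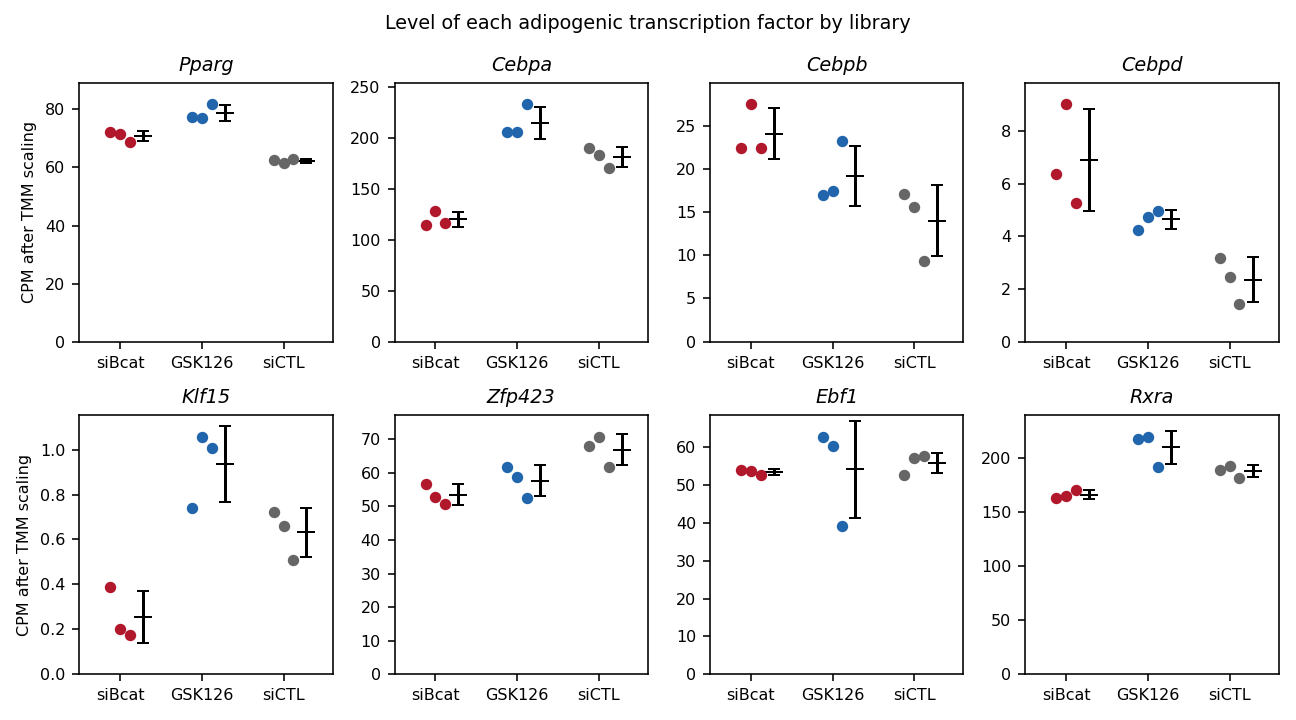
Level of each factor in every library, as CPM after TMM scaling on an axis from 0, with siBcat, GSK126 and siCTL from left to right; points are libraries, and the bar beside them is the mean with the SD (n = 3). Cebpa in siBcat (115 to 128 CPM) lies below every other library, Pparg in both treatments lies above siCTL, and 1 GSK126 library has low Ebf1 (39.3 CPM).

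Cebpb and Cebpd encode the early C/EBP factors, and both were highest in siBcat. Cebpb (chr2:167688915-167690418 on GRCm38, a single exon) was at 22.4, 27.5 and 22.4 CPM in siBcat, 16.9, 17.5 and 23.2 CPM in GSK126, and 17.1, 15.6 and 9.34 CPM in siCTL. The siBcat libraries lay above all siCTL libraries, whereas GSK126 overlapped both other groups. Cebpb rose in siBcat over siCTL by a log2 fold change of 0.78 (SE 0.21, adjusted p = 0.0179), that is 1.72-fold. The call ended in 4 of 24 alternative settings, among them without siBcat replicate 2 (adjusted p = 0.0519), with an adjusted p between 0.00013 and 0.075 over all of them. GSK126 over siCTL gave 0.46 (SE 0.21, 95% interval -0.02 to 0.94, adjusted p = 0.150), and it was called in 0 of 24 alternatives. That value was 0.23 without siCTL replicate 3, 0.29 without GSK126 replicate 3 and 0.19 with a GC trend removed. Between the treatments, siBcat over GSK126 gave 0.33 (SE 0.21, adjusted p = 0.241). With a GC trend removed, the difference between the treatments was past the threshold (adjusted p = 0.00208, range over alternatives 0.00208 to 0.474). The lowest Cebpb value came from siCTL replicate 3, the library with the largest GC trend. Without this library siBcat over siCTL gave 0.56 (adjusted p = 0.0140), and with a GC trend removed from all libraries it gave 0.67 (adjusted p = 0.000250). Cebpb shares part of its bases with Tmem189 on the opposite strand. Whether the counting used strand is not given in the sources used here, so reads from the shared part cannot be told apart. Tmem189 was at 26.2, 27.4 and 26.6 CPM in siBcat, 26.0, 22.8 and 25.4 CPM in GSK126, and 22.9, 23.0 and 21.6 CPM in siCTL.

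Cebpd (chr16:15887286-15891031, a single exon) showed the largest rise among the 8 factors, from a low level. It was at 6.38, 9.03 and 5.25 CPM in siBcat, 4.24, 4.73 and 4.97 CPM in GSK126, and 3.17, 2.47 and 1.44 CPM in siCTL, where these values stood on 140, 112 and 68 counts. Every siBcat library was above every GSK126 library, and these above every siCTL library. The rise was 1.55 on the log2 scale in siBcat over siCTL (SE 0.26, adjusted p = 0.000861, 2.93-fold), and it was called in all 24 alternatives (1.29 to 1.82). GSK126 gave a rise of 0.98 over siCTL (SE 0.26, adjusted p = 0.0202, 1.97-fold). That call ended without GSK126 replicate 3 (adjusted p = 0.101), without siCTL replicate 2 (0.0590) and without siCTL replicate 3 (0.0506), over a range of 0.000701 to 0.101 in 24 alternatives. The treatments themselves differed by 0.57 (SE 0.24, 95% interval 0.04 to 1.10, adjusted p = 0.0802), which did not pass. It did pass in 4 of 24 alternatives, 2 of which left out a library: siBcat replicate 3 (0.0375) and siCTL replicate 3 (0.0280). Without siBcat replicate 2 the difference was 0.33 (adjusted p = 0.306), the highest p over the alternatives, and the lowest was 0.0280. Cebpd overlaps Spidr on the opposite strand, listed under its older symbol 2310008H04Rik, which was at 18.9 to 20.7 CPM in siBcat, 19.1 to 21.7 CPM in GSK126 and 16.8 to 18.3 CPM in siCTL.

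Cebpa (chr7:35119293-35121928) encodes the C/EBP factor of terminal adipocyte differentiation, and it moved in opposite directions in the treatments. It was at 115, 128 and 117 CPM in siBcat, 205, 206 and 233 CPM in GSK126, and 189, 183 and 171 CPM in siCTL. The groups did not overlap in any pairing. Cebpa fell in siBcat, with a log2 fold change over siCTL of -0.59 (SE 0.07, adjusted p = 2.30e-05, 1.51-fold lower), a call that held in all 24 alternatives (-0.68 to -0.56). It rose in GSK126 over siCTL by 0.25 (SE 0.07, adjusted p = 0.0175, 1.19-fold). That call ended without siCTL replicate 2 (adjusted p = 0.0626), without siCTL replicate 3 (0.0755) and, at a log2 fold change of 0.06, with a GC trend removed (0.479), where the range over 24 alternatives was 0.00482 to 0.479. Directly, siBcat was 1.79-fold lower than GSK126, a log2 fold change of -0.84 (SE 0.07, adjusted p = 8.25e-07), which held in all 24 alternatives. The annotated antisense gene Gm45091 overlaps Cebpa, Gm44079 overlaps Pparg and Gm12158 overlaps Ebf1; no value of these 3 was used here.

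Since Cebpb and Cebpd rose in siBcat while Cebpa fell, the mix of C/EBP transcripts was different. Per kilobase of the deposited gene length, Cebpa made up 71.0, 68.6 and 71.9% of the summed level of the 3 genes in siBcat, 85.6, 85.1 and 83.4% in GSK126, and 84.9, 85.8 and 90.4% in siCTL. All siBcat shares were below those of the other libraries, while GSK126 and siCTL overlapped. The Cebpb share was 24.3, 25.8 and 24.3% in siBcat, 12.4, 12.7 and 14.6% in GSK126, and 13.5, 12.9 and 8.68% in siCTL. The summed level averaged 64.5 ± 5.61 CPM per kb in siBcat, 96.2 ± 8.45 in GSK126 and 78.9 ± 6.68 in siCTL (SD, n = 3 each). Cebpa exceeded Cebpb 2.66 to 2.96 times in siBcat, 5.72 to 6.91 times in GSK126 and 6.31 to 10.4 times in siCTL. These shares are descriptions of the values already given, and no test was made on them.

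**Figure D2:**
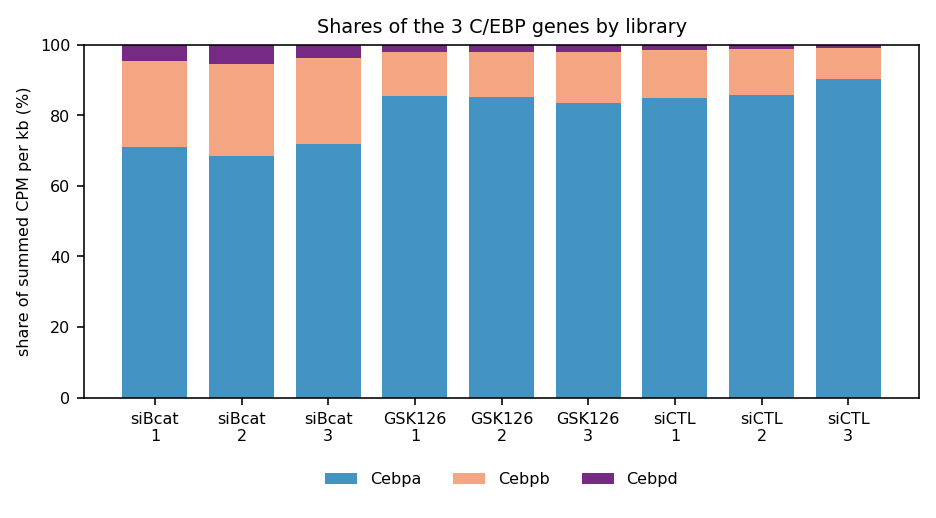
Shares of Cebpa, Cebpb and Cebpd in their summed level (percent of CPM per kb of deposited length, stacked from 0 to 100) in each of the 9 libraries, siBcat to the left, GSK126 in the middle and siCTL to the right. Cebpa takes 68.6 to 71.9% in siBcat and 83.4 to 90.4% in the other 6 libraries.

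Pparg (chr6:115360951-115490399) encodes PPARγ, the nuclear receptor that is required for fat cell formation, and it was higher in both treatments than in siCTL. It was at 72.1, 71.4 and 68.8 CPM in siBcat, 77.5, 76.9 and 81.8 CPM in GSK126, and 62.6, 61.6 and 62.8 CPM in siCTL. The groups were fully separated, with GSK126 highest and siCTL lowest. The rise in GSK126 over siCTL was 0.34 on the log2 scale (SE 0.05, adjusted p = 0.000348, 1.26-fold) and was called in all 24 alternatives. The rise in siBcat over siCTL was 0.18 (SE 0.05, adjusted p = 0.0120, 1.14-fold). It lost its call without siBcat replicate 1 (adjusted p = 0.0652), without siCTL replicate 2 (0.0694) and with scaling by library size alone (0.0515), in a range of 0.000496 to 0.0694. Pparg was lower in siBcat than in GSK126, by -0.15 (SE 0.05, adjusted p = 0.0251, 1.11-fold lower). This difference was lost without siBcat replicate 1 (0.0501), 2 (0.0610) or 3 (0.122), without GSK126 replicate 1 (0.0514) and in a fit of only these groups (0.0723), with 0.00520 as the lowest value over the alternatives. Gene counts do not separate the PPARγ1 and PPARγ2 transcripts, which begin at different starts.

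Rxra (chr2:27676440-27762957) encodes RXRα, the partner with which PPARγ binds DNA. It was at 163, 165 and 171 CPM in siBcat, 218, 220 and 192 CPM in GSK126, and 189, 193 and 182 CPM in siCTL. All siBcat libraries were below the others; GSK126 replicate 3 lay among the siCTL values. Rxra fell in siBcat relative to GSK126 by a log2 fold change of -0.34 (SE 0.06, adjusted p = 0.000569, 1.26-fold lower), which held in all 24 alternatives. Against siCTL the fall in siBcat was -0.18 (SE 0.06, adjusted p = 0.0326, 1.13-fold lower). That call ended without siBcat replicate 1 (0.0912), 2 (0.0987) or 3 (0.0587) and without siCTL replicate 1 (0.0854) or 2 (0.0963), over a range of 0.000161 to 0.0987. GSK126 over siCTL gave 0.16 (SE 0.06, 95% interval 0.03 to 0.29, adjusted p = 0.0657), which did not pass. It passed in 5 of 24 alternatives: without GSK126 replicate 3, the library with the strong length trend (0.22, adjusted p = 0.000119), with the length trend removed (0.25, adjusted p = 0.000176), the same with a replicate block (0.000633), and with upper quartile (0.0273) or library size scaling (0.0182). The fold change ran from 0.08 to 0.25 over the alternatives, lowest where a GC trend was removed, and the adjusted p ran to 0.435. The ratio of Rxra to Pparg per length averaged 0.885 ± 0.0438 in siBcat, 1.01 ± 0.108 in GSK126 and 1.14 ± 0.0451 in siCTL (SD, n = 3 each), and the siBcat and siCTL ratios did not overlap.

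Klf15 (chr6:90462576-90475238) encodes a Krüppel-like factor induced in adipocyte differentiation and a known glucocorticoid target. It was close to the limit of detection. It was at 0.390, 0.202 and 0.175 CPM in siBcat, 0.742, 1.06 and 1.01 CPM in GSK126, and 0.724, 0.661 and 0.509 CPM in siCTL. Behind these values were 16, 10 and 8 counts in siBcat, 42, 46 and 52 in GSK126, and 32, 30 and 24 in siCTL. No group overlapped another. Klf15 fell in siBcat by -1.32 against siCTL (SE 0.37, adjusted p = 0.0140, 2.49-fold lower) and by -1.88 against GSK126 (SE 0.35, adjusted p = 0.000909, 3.68-fold lower). The second call held in all 23 alternatives that tested the gene. The first ended without siBcat replicate 2 (0.0581) and without siBcat replicate 3 (0.0585), in a range of 0.00508 to 0.0585. GSK126 over siCTL gave 0.56 (SE 0.31, 95% interval -0.10 to 1.23, adjusted p = 0.202). Since all counts were even, the number of fragments behind these values may be lower than the counts.

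Zfp423 and Ebf1 encode zinc finger and early B-cell factors of precursor commitment, and only Zfp423 was called. Zfp423 (chr8:87661810-87959595, - strand) was at 56.8, 52.8 and 50.8 CPM in siBcat, 61.8, 58.7 and 52.6 CPM in GSK126, and 68.0, 70.7 and 61.7 CPM in siCTL. It fell in siBcat over siCTL by -0.32 (SE 0.07, adjusted p = 0.00453, 1.25-fold lower), with no overlap, and the call held in all 24 alternatives. GSK126 over siCTL gave -0.21 (SE 0.07, 95% interval -0.37 to -0.05, adjusted p = 0.0525), with 1 GSK126 library a little above the lowest siCTL library. It was called in 9 of 24 alternatives, among them without GSK126 replicate 1 (0.0343) and without siCTL replicate 3 (0.0345), over a range of 0.00688 to 0.163. The treatments gave -0.11 for siBcat over GSK126 (SE 0.07, 95% interval -0.27 to 0.05, adjusted p = 0.254). This last difference was -0.17 without GSK126 replicate 3 (adjusted p = 0.0199) and -0.05 without GSK126 replicate 1 (adjusted p = 0.640). It also passed with scaling by library size alone (-0.18, adjusted p = 0.0467) and with a replicate block and length trend removed (adjusted p = 0.0304), and in no other of the 24 alternatives.

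Ebf1 (chr11:44617317-45008091) was at 54.0, 53.8 and 52.6 CPM in siBcat, 62.7, 60.3 and 39.3 CPM in GSK126, and 52.7, 57.1 and 57.7 CPM in siCTL. GSK126 replicate 3 was the lowest of all 9 libraries and the other GSK126 libraries were the highest, so the groups overlapped. The log2 fold change was -0.06 in siBcat over siCTL (SE 0.14, 95% interval -0.38 to 0.26, adjusted p = 0.769). It was -0.05 in GSK126 over siCTL (SE 0.14, 95% interval -0.36 to 0.27, adjusted p = 0.843) and -0.02 in siBcat over GSK126 (SE 0.14, 95% interval -0.34 to 0.30, adjusted p = 0.939). The values for GSK126 rested on replicate 3. Without it, Ebf1 was higher in GSK126 than in siCTL by 0.14 (adjusted p = 0.0444, range over alternatives 0.0444 to 0.944) and lower in siBcat than in GSK126 by -0.20 (adjusted p = 0.00218, range 0.00218 to 0.997). With the length trend removed but that library kept, GSK126 over siCTL gave -0.07 (adjusted p = 0.814).

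**Figure D3:**
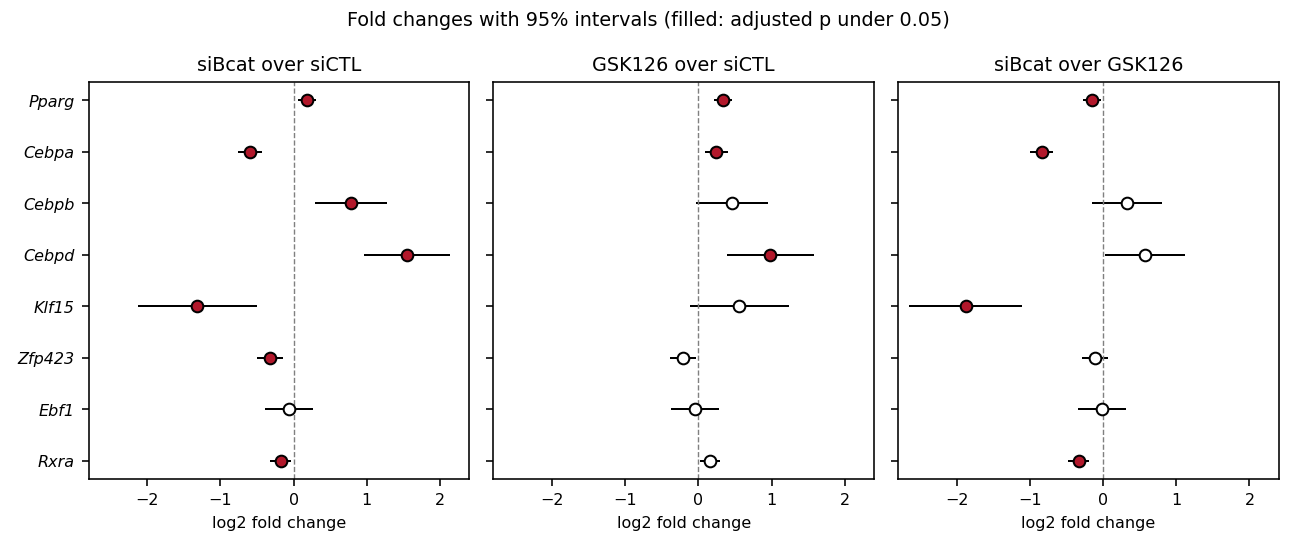
Log2 fold change of each factor (points) with its 95% interval (lines) in siBcat over siCTL, GSK126 over siCTL and siBcat over GSK126; filled points have an adjusted p under 0.05. Cebpd and Cebpb lie to the right in siBcat over siCTL while Klf15 and Cebpa lie to the left, and no filled point lies to the right in siBcat over GSK126.

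The order of the factors by level per length differed little between the groups. In siBcat it was Cebpa (45.4 CPM per kb), Pparg (35.7), Rxra (31.6), Ebf1 (23.8), Cebpb (16.0), Zfp423 (10.9), Cebpd (3.05) and Klf15 (0.112), and no neighbours overlapped between libraries. In GSK126 it was Cebpa (81.3 CPM per kb), Rxra (39.9), Pparg (39.7), Ebf1 (24.1), Cebpb (12.8), Zfp423 (11.8), Cebpd (2.06) and Klf15 (0.408). There, Rxra and Pparg overlapped, and so did Cebpb and Zfp423. In siCTL it was Cebpa (68.6 CPM per kb), Rxra (35.7), Pparg (31.4), Ebf1 (24.9), Zfp423 (13.6), Cebpb (9.32), Cebpd (1.04) and Klf15 (0.275), without overlap between neighbours. Pparg thus stood above Rxra in siBcat and below it in siCTL, and Cebpb stood above Zfp423 in siBcat and below it in siCTL. Cebpa led and Klf15 came last in every group.

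**Figure D4:**
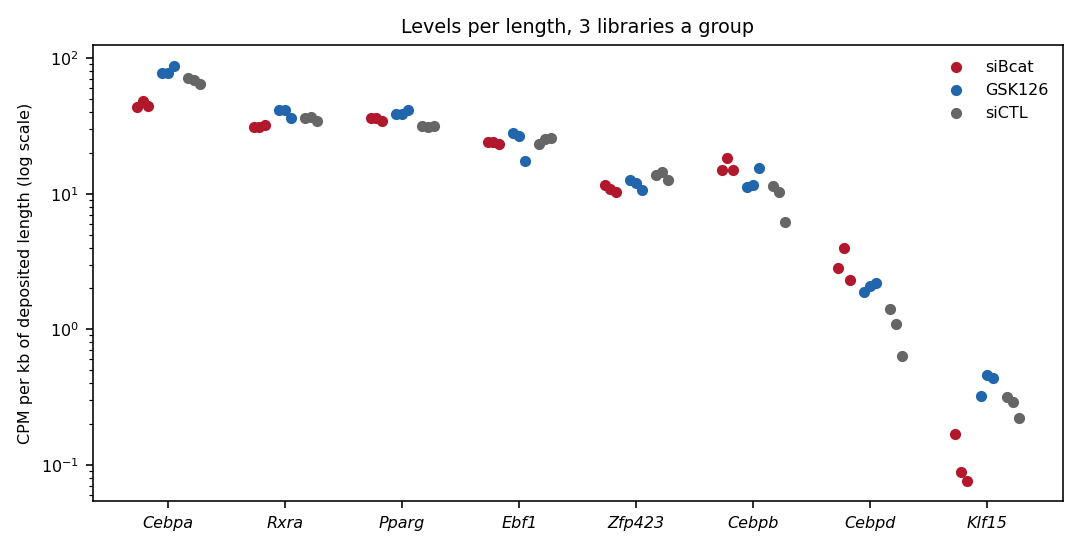
Level per length of the 8 factors in each library (CPM per kb of deposited length, log axis), ordered by the siCTL mean, with siBcat, GSK126 and siCTL from left to right at each gene. Cebpa is highest in all groups, from 45.4 (siBcat) to 81.3 (GSK126) CPM per kb on average, and Klf15 is lowest, at 0.112 in siBcat.

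For the 4 factors with a called log2 fold change of at least 0.58 in size against siCTL, the genes with the most like pattern were sought among 10897 genes of at least 2 CPM (10898 for Klf15). The measure was the root mean square difference of log2 CPM, centred on siCTL, over the 9 libraries. Nearest to Cebpa were Lpl, which encodes lipoprotein lipase (0.0615), Ctnnbip1, which encodes an inhibitor of beta-catenin binding to Tcf factors (0.0685), and Pmp22, a myelin and membrane protein gene (0.0698). Lpl averaged 1142 CPM in siBcat, 2143 CPM in GSK126 and 1773 CPM in siCTL. Nearest to Cebpb were Mrpl34 (0.13) and Mrp63 (0.137), both named for mitochondrial ribosomal proteins, and Cox17 (0.139), a copper chaperone gene of cytochrome oxidase. Nearest to Cebpd were Chac1, a glutathione-degrading enzyme gene of the stress response (0.212), Irx3, a homeobox gene (0.248), and ORF63 (0.317). Nearest to Klf15 were Tmem194b (0.234), Cxcl1, a chemokine gene (0.296), and Gdpd5 (0.298). These are descriptions over libraries that share depth and trends.

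From a chosen list of genes that PPARγ and C/EBPα are known to activate, nearly all those tested were higher in GSK126 than in siCTL. In siBcat more of the listed genes were called lower than higher. Of the 26 listed genes, 22 were tested. In GSK126 over siCTL, 21 were higher and 0 lower, with a median log2 fold change of 0.94, while Pparg and Cebpa rose by 0.34 and 0.25. All 21 held in every alternative. Adipoq, the adiponectin gene, averaged 25.6 CPM in GSK126 against 3.15 CPM in siCTL (3.02, SE 0.14, adjusted p = 2.80e-08). Plin1, which encodes a lipid droplet coat protein, averaged 19.0 against 0.846 CPM (4.48, SE 0.21). Cd36, a fatty acid transporter gene, was at 9.21 against 0.220 CPM (5.37, SE 0.29), and Scd1, a desaturase gene, at 1354 against 573 CPM (1.24, SE 0.07). In siBcat over siCTL, 2 were higher and 9 lower, with a median of -0.14, and 8 of these 11 calls held in every alternative. Fabp4, the adipocyte fatty acid binding protein gene, averaged 25.9 CPM in siBcat against 58.8 CPM in siCTL (-1.18, SE 0.09, adjusted p = 5.36e-07), and Lpl 1142 against 1773 CPM (-0.63, SE 0.05). Fabp5 was lower as well (-0.52, SE 0.06), whereas Angptl4, which encodes an inhibitor of lipoprotein lipase, was higher (0.59, SE 0.05). In siBcat over GSK126, 1 was higher (Angptl4) and 21 were lower, with a median of -1.34. Of these 22 calls, 20 held in every alternative. Angptl4 lost its call with scaling by library size alone (adjusted p = 0.103). Plin2, lower at an adjusted p of 0.0379, lost its call in 7 of 24 alternatives. Adipoq averaged 1.04 CPM in siBcat against 25.6 CPM in GSK126 (-4.62, SE 0.16). Of the tested genes, 50.0% were called in siBcat over siCTL, 95.5% in GSK126 over siCTL and 100.0% in siBcat over GSK126. The shares over all genes were 35.2%, 25.0% and 41.2% in the same order.

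Markers of mature adipocytes moved with the groups. All of them but Adrb3 are also in the list of targets above, so the 2 lists are not separate lines of evidence. In each marker list of this paragraph at most 5 genes were tested. Over all genes, 35.2% were called in siBcat over siCTL, 25.0% in GSK126 over siCTL and 41.2% in siBcat over GSK126. The summed level of all 8 adipocyte markers was 1.36 to 2.67 CPM in siBcat, 48.5 to 52.8 CPM in GSK126 and 4.12 to 5.26 CPM in siCTL. Lep, the leptin gene, was at 0 in all 9 libraries, Retn in all siBcat and siCTL libraries, and Cidea in all GSK126 and siCTL libraries. Of 5 tested markers, 5 rose in GSK126 over siCTL: Adipoq and Plin1 with the values above, the lipid droplet gene Cidec (3.03, SE 0.23), the adipsin gene Cfd (2.41 CPM in GSK126 against 0.0445 CPM in siCTL) and the receptor gene Adrb3 (0.390 against 0.132 CPM, adjusted p = 0.0416), whose call ended in 9 of 22 alternatives (adjusted p 0.0333 to 0.147). In siBcat over siCTL, 2 fell (Adipoq by -1.60, SE 0.18, and Cidec by -1.17, SE 0.34), and in siBcat over GSK126 all 5 were lower. The fall of Cidec lost its call without siBcat replicate 2 (adjusted p = 0.0642). Between the treatments, the Adrb3 call (adjusted p = 0.0397) ended in 8 of 22 alternatives. The part of the adipocyte markers in the differences of Pparg, Cebpa, Klf15 and Rxra was not tested. The 8 macrophage and haematopoietic markers summed to 3.31 to 3.64 CPM in siBcat, 2.67 to 3.34 CPM in GSK126 and 2.73 to 3.01 CPM in siCTL. Of 4 tested, 3 were called in siBcat over siCTL, Lyz2 (0.391 CPM in siBcat against 0.0445 CPM in siCTL) and Cd74 (0.81, SE 0.26) as higher and Cd68 (-0.67, SE 0.23) as lower. Cd74 was also higher in siBcat over GSK126 (1.04, SE 0.26), and 0 were called in GSK126 over siCTL. Endothelial markers summed to at most 2.26 CPM in any library, and of 2 tested, Kdr was higher and Vwf lower in siBcat, over siCTL (1.52, SE 0.32, and -0.90, SE 0.29) and over GSK126 (1.31, SE 0.31, and -0.87, SE 0.29). Skeletal muscle markers summed to 55.5 to 60.2 CPM in siBcat, 46.6 to 55.6 CPM in GSK126 and 45.7 to 51.2 CPM in siCTL, and Myog was at 0 in all libraries. Of 2 tested, Acta1, the skeletal actin gene, was higher in siBcat over siCTL (2.56, SE 0.11), in GSK126 over siCTL (2.10, SE 0.11) and in siBcat over GSK126 (0.46, SE 0.09), at means of 10.4 CPM in siBcat, 7.57 CPM in GSK126 and 1.77 CPM in siCTL. Neural markers summed to 3.76 to 4.37 CPM in siBcat, 4.27 to 5.33 CPM in GSK126 and 4.39 to 5.18 CPM in siCTL, and Sox10 was at 0 in all libraries. Of 4 tested, Tubb3 was higher (1.15, SE 0.32) and S100b lower (-0.80, SE 0.24) in siBcat over siCTL, S100b was lower in siBcat over GSK126 (-1.09, SE 0.24), and 0 were called in GSK126 over siCTL. Leaving out 1 library ended some of these low-level calls. In siBcat over siCTL the highest adjusted p came without siCTL replicate 3 for Cd68 (0.154), S100b (0.0962) and Tubb3 (0.0604), without siCTL replicate 2 for Cd74 (0.106) and without siBcat replicate 2 for Vwf (0.114). For Vwf in siBcat over GSK126 it came without GSK126 replicate 1 (0.144). The part of any of these markers in the factors' differences was not tested.

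For the coregulators through which nuclear receptors such as PPARγ and RXRα act, the number called depended on single libraries, GSK126 replicate 3 most of all. With all libraries, of 15 tested, 0 rose and 2 fell in siBcat over siCTL: the coactivator gene Ncoa3 (-0.39, SE 0.11, adjusted p = 0.0146) and the demethylase gene Kdm1a (-0.17, SE 0.06, adjusted p = 0.0294). In GSK126 over siCTL, 0 rose and 3 fell, namely Med1 of the Mediator complex (-0.27, SE 0.08), the corepressor gene Ncor1 (-0.43, SE 0.13) and Tbl1x of the corepressor complex (-0.54, SE 0.17). In siBcat over GSK126 only Med1 was called, and it was higher (0.25, SE 0.08). None of these 6 calls held in every alternative. They came to 13.3%, 20.0% and 6.67% of the list, beside 35.2%, 25.0% and 41.2% of all genes, with medians of -0.15, -0.14 and 0.11. Libraries of siBcat and siCTL did not overlap for 12 of the 15, beside 55.2% of all genes. Without GSK126 replicate 3, 1 coregulator was higher and 11 were lower in siBcat over siCTL (12 of the 15, with 6320 genes called in all), and the same counts came from a fit of only these groups. Without it, 1 was higher and 6 lower in GSK126 over siCTL, and 3 were higher and 4 lower in siBcat over GSK126. The number called over all genes moved as well. With 1 library left out it ran from 2337 to 3844 in GSK126 over siCTL and from 4417 to 6318 in siBcat over GSK126. Leaving out siBcat replicate 3 called 0 in siBcat over siCTL, and leaving out siBcat replicate 1 or 2 or siCTL replicate 1 or 3 called 1. Leaving out siCTL replicate 2 or 3 called 0 in GSK126 over siCTL, and leaving out siCTL replicate 1 called 1. Between the treatments, 0 were called without any 1 siBcat library, and 2 without GSK126 replicate 2.

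Of 29 other regulators that favour adipogenesis, 28 were tested. In siBcat over siCTL, 3 were higher and 8 lower (median -0.14). Klf4 (0.92, SE 0.09) and Egr2, also known as Krox20 (0.72, SE 0.06), rose; both are known to act upstream of Cebpb in mouse 3T3-L1 cells. Tle3, a corepressor gene that works with PPARγ (-0.43, SE 0.06), and Ebf3, a relative of Ebf1 (-0.45, SE 0.07), fell. GSK126 had 9 higher and 3 lower than siCTL (median 0.06). Klf4 (0.95, SE 0.09) and Egr2 (0.53, SE 0.06) rose here too, with Bmp4, a ligand of precursor commitment (1.31, SE 0.08), and Srebf1, a lipogenic factor gene (0.71, SE 0.09). In siBcat over GSK126, 3 were higher and 11 lower (median -0.21), the 4 with the smallest adjusted p being Bmp4 (-1.29, SE 0.08), the liver X receptor gene Nr1h3 (-0.67, SE 0.07), Stat5a (-0.56, SE 0.07) and Tle3 (-0.51, SE 0.06). Klf4 averaged 31.2 CPM in siBcat, 32.0 CPM in GSK126 and 16.5 CPM in siCTL, and Egr2 averaged 52.7, 46.2 and 32.1 CPM in the same groups. Egr2 was also called higher in siBcat than in GSK126 (0.19, SE 0.06, adjusted p = 0.0161), a call that ended without siBcat replicate 3 (0.0782) or GSK126 replicate 1 (0.0503). The share of the list that was called came to 39.3%, 42.9% and 50.0% in the 3 comparisons, beside 35.2%, 25.0% and 41.2% of all genes. Without siCTL replicate 3, 5 were higher and 2 lower in GSK126 over siCTL.

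All 24 regulators that restrain adipogenesis were tested. In siBcat over siCTL, 6 were higher and 8 lower (median -0.08), that is 58.3% of the list beside 35.2% of all genes. Without siBcat replicate 2, 3 were higher and 5 lower, and without siCTL replicate 2, 4 were higher and 5 lower. The Notch target gene Hes1 (1.35, SE 0.13) and the pseudokinase gene Trib3 (1.08, SE 0.13) rose, while Tcf7l2, a nuclear partner of beta-catenin (-0.65, SE 0.06), and Foxo1, a repressor of Pparg (-0.70, SE 0.09), fell. GSK126 had 9 higher and 2 lower than siCTL (median 0.08), 45.8% beside 25.0% of all genes. Insig1, a brake on sterol synthesis (0.49, SE 0.05), Hes1 (0.97, SE 0.13), Zfp521 (0.49, SE 0.08) and Klf2, a repressor of Pparg (0.80, SE 0.16), rose. In siBcat over GSK126, 6 were higher and 9 lower (median -0.06; 62.5% beside 41.2% of all genes), with Tcf7l2 (-0.82, SE 0.06), Insig1 (-0.54, SE 0.05), Foxo1 (-1.03, SE 0.09) and Zfp521 (-0.89, SE 0.08) leading by adjusted p. Zfp521 is a paralogue of Zfp423 known to oppose it. Zfp521 averaged 17.4 CPM in siBcat, 32.2 CPM in GSK126 and 22.9 CPM in siCTL, and Zfp423 53.4, 57.7 and 66.8 CPM in the same groups.

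The stromal markers of these cells were called in both directions. Of 11 tested, 2 were higher and 3 lower in siBcat over siCTL: the adhesion receptor gene Cd44 (0.85, SE 0.06) and Ly6a, which encodes Sca-1 (0.78, SE 0.08), were higher, and Vcam1 (-0.79, SE 0.05), the chemokine gene Cxcl12 (-0.65, SE 0.05) and Pdgfra (-0.29, SE 0.06) were lower. GSK126 had 3 higher and 3 lower than siCTL, led by Cxcl12 (1.09, SE 0.05), Vcam1 (0.47, SE 0.05), Pdgfra (-0.59, SE 0.06) and Pdgfrb (-0.36, SE 0.07). Between siBcat and GSK126, 4 were higher and 4 lower in siBcat, led by Cxcl12 (-1.74, SE 0.05), Vcam1 (-1.26, SE 0.05), Cd44 (0.84, SE 0.06) and Pdgfrb (0.54, SE 0.07). All calls against siCTL held in every alternative, as did 6 of the 8 between the treatments. Col1a1, lower in siBcat than in GSK126, lost its call without GSK126 replicate 3 (adjusted p = 0.0563). Eng, lower as well (0.0478), lost its call in 15 of 24 alternatives. Cxcl12 and Vcam1, like Cebpa, were lower in siBcat and higher in GSK126 than in siCTL. Of the tested markers, 45.5% were called in siBcat over siCTL, 54.5% in GSK126 over siCTL and 72.7% in siBcat over GSK126. The shares over all genes were 35.2%, 25.0% and 41.2% in the same order.

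**Figure D5:**
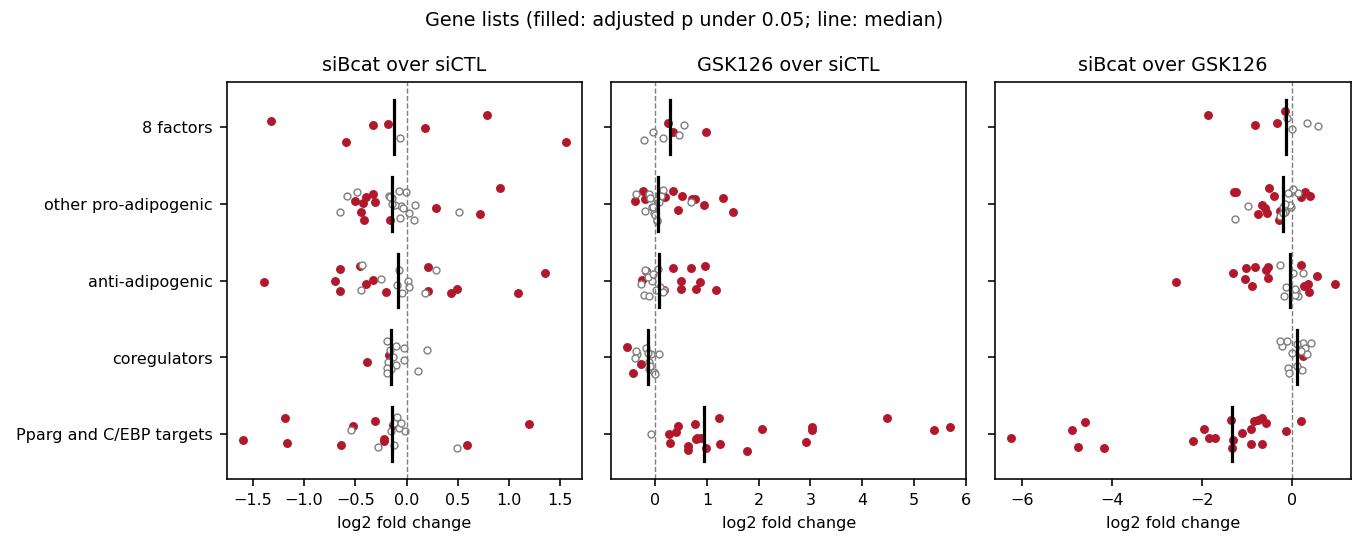
Log2 fold changes of the tested genes of 5 lists in siBcat over siCTL, GSK126 over siCTL and siBcat over GSK126, each panel on its own linear axis; points are genes, filled where the adjusted p is under 0.05, and the black line is the list's median. The median of the PPARγ and C/EBP targets is 0.94 in GSK126 over siCTL and -1.34 in siBcat over GSK126, while those of the 8 factors are 0.29 and -0.13.

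Cebpd and Klf15 are both known to respond to glucocorticoids. In siBcat Cebpd was higher than in siCTL and Klf15, at low counts, was lower. A part of glucocorticoid signalling in these differences was not tested. Of 13 glucocorticoid response genes, 11 were tested, and 6 were higher and 2 lower in siBcat over siCTL (median 0.455). Fkbp5 (adjusted p = 0.317), Tsc22d3 (0.115) and Per1 (0.767) were tested but not called there. Sgk1, a kinase gene (0.67, SE 0.05), and the metallothionein gene Mt2 (1.17, SE 0.10) were higher with Angptl4, which is counted in both lists, and Errfi1, which encodes an inhibitor of the EGF receptor, was lower (-0.42, SE 0.05). GSK126 had 5 higher and 2 lower than siCTL (median 0.239), with Errfi1 (-0.82, SE 0.05) and the phosphatase gene Dusp1 (-0.33, SE 0.06) as the lower ones and Mt1 (0.62, SE 0.09) and Angptl4 (0.40, SE 0.05) among the higher. In siBcat over GSK126, 6 were higher and 2 lower (median 0.192), with Dusp1 (0.79, SE 0.06) first by adjusted p. Tsc22d3 was called higher in GSK126 than in siCTL (adjusted p = 0.00319) and lower in siBcat than in GSK126 (0.000102). Of the tested genes, 72.7% were called in siBcat over siCTL, 63.6% in GSK126 over siCTL and 72.7% in siBcat over GSK126. The shares over all genes were 35.2%, 25.0% and 41.2% in the same order.

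Among 10 osteoblast transcription factors, the opposing fate of the same precursors, 3 were higher and 1 lower in siBcat over siCTL (median 0.17). Without GSK126 replicate 3, 6 were higher and 1 lower, while the genes called in all went from 4666 to 6320. Of the list, 40.0% were called in siBcat over siCTL, 30.0% in GSK126 over siCTL and 20.0% in siBcat over GSK126. The shares over all genes were 35.2%, 25.0% and 41.2% in the same order. Dlx3 (1.49, SE 0.11), Dlx5 (1.12, SE 0.29) and Msx2 (0.42, SE 0.11), homeobox genes, rose, and Runx2, the main osteoblast regulator, fell (-0.30, SE 0.08, adjusted p = 0.00870). In GSK126 over siCTL, Msx2 (0.51, SE 0.11) and Dlx5 (1.28, SE 0.28) rose and Runx1 fell (-0.34, SE 0.10). In siBcat over GSK126, Dlx3 (1.47, SE 0.11) and Runx1 (0.55, SE 0.10) were higher. Runx2 averaged 67.5 CPM in siBcat against 83.3 CPM in siCTL, a fall similar in log2 size to that of Zfp423 (-0.32).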

How the data were processed

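RNA-seq counts of 9 libraries in 3 groups were used; groups followed the sample titles. The submitters' processing notes name mm10, HTSeq, TopHat2 2.0.6 and bcl2fastq. The authors deposited a raw count per gene and library. Another 6 columns of per-sample values, of a combination treatment, were not used. The deposited gene length served for levels per kilobase; 37.8% of lengths were multiples of 3. In R 4.3.3, edgeR 4.0.16 was run on all 9 libraries: filterByExpr (minimum count 10, minimum total 15), TMM scaling, a robust quasi-likelihood fit and F-tests without a replicate block, adjusted by Benjamini-Hochberg over 13240 genes (10118 filtered out). Alternatives were other scalings, filters and tests (DESeq2 1.42.0, limma 3.58.1), each library left out, and, added after the data were seen, length or GC trends removed together with a replicate block. Trends were fitted to deviations from the mean over all libraries, not from group means. The procedure was tested on simulated counts. Summaries and figures were made with matplotlib 3.10.9, numpy 2.4.6 and pandas 2.3.3 in Python 3.11.15. Gene positions come from GENCODE M21.

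The members and lists were chosen with earlier results of these data known. Of each list, all called genes were named where 5 or fewer were called, otherwise up to 4 with the smallest adjusted p per comparison. A few further genes were named to show a limit of a list, such as a gene not called or a call that ended.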

Additional observations from a re-analysis of the deposited data

How the results depend on the processing

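Over 24 alternatives (23 for Klf15, which a filter of 1 CPM in 3 libraries removes), Cebpa, Cebpd and Zfp423 kept their calls in siBcat over siCTL, Pparg in GSK126 over siCTL, and Cebpa, Klf15 and Rxra in siBcat over GSK126; every other call among the 8 factors ended under at least 1 setting. At a fold of at least 1.5, 4 factors and 1363 genes were called in siBcat over siCTL, 1 factor and 922 genes in GSK126 over siCTL, and 2 factors and 1751 genes in siBcat over GSK126; fewer genes can pass by construction. Upper quartile scaling called 5 factors in GSK126 over siCTL; the cause was not tested. Leaving out 1 library gave 4 (without siBcat replicate 2) to 7 factors in siBcat over siCTL, 1 (without siCTL replicate 2) to 4 in GSK126 over siCTL and 3 to 6 in siBcat over GSK126, and 3613 to 6320, 2337 to 3844 and 4417 to 6318 genes. Ebf1 in GSK126 over siCTL reversed to 0.14 without GSK126 replicate 3 (range with 1 library left out -0.17 to 0.14), and in siBcat over GSK126 to 0.015 with limma-voom, 0.0083 with a replicate block and length trend removed, 0.11 without GSK126 replicate 1 and 0.07 without GSK126 replicate 2 (range -0.20 to 0.11). Low counts limit Klf15 (8 to 52 counts) and Cebpd (68 to 446).

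With a replicate block, 7, 4 and 4 factors were called in the 3 comparisons (siBcat over siCTL, GSK126 over siCTL, siBcat over GSK126), against 7, 3 and 4 without it, as Zfp423 was called in GSK126 over siCTL (adjusted p = 0.0217). The replicate numbers are not known to pair the cultures: correlations of deviations of same-numbered libraries ran from -0.119 to 0.113. No GSK126 library correlated best with the siCTL library of its own number. Among the siBcat libraries, only replicates 2 and 3 did so with siCTL, and only replicate 3 with GSK126.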
